A study of Homo sapiens with 8 samples.

Results

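Small nucleolar RNA host genes are genes whose spliced-out introns are processed into small nucleolar RNAs (snoRNAs), while the exons are joined into a separate transcript. The 32 genes described here were chosen by name: every gene with a symbol made of SNHG and a number, plus GAS5, ZFAS1, EPB41L4A-AS1 and DANCR, out of 60624 genes listed. All 32 are annotated as long noncoding RNA (lncRNA) genes. Of these, 28 had enough reads to be tested, among 18661 tested genes in all. SNHG18, SNHG22, SNHG27 and SNHG28 did not, with between 0 and 7 counts in any library. SNHG28, with 0 in every library, shares 90.8% of its exonic bases on the same strand with other genes. Reads that fall on 2 genes can be set aside in counting, so this 0 does not show that its transcript was absent.

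The measurements come from A549, an established human lung adenocarcinoma cell line, in 4 groups: untreated cells, cells given indisulam, cells given SPHINX31, and cells given both (the combination). Indisulam is a molecular glue that brings the splicing factor RBM39 to the ubiquitin ligase receptor DCAF15 for degradation, and SPHINX31 inhibits SRPK1, a kinase that phosphorylates serine- and arginine-rich splicing factors. The sources differ on the exposure. The methods for A549 give 0.5 µM indisulam, 5 µM SPHINX31 and 24 h. The labels of the libraries with indisulam give 2 µM indisulam and 18 h, with no amount of SPHINX31. The same methods give 2 µM and 18 h for a separate experiment in a pancreatic cancer cell line. Each group had 2 technical duplicates of polyadenylated, stranded RNA libraries, so a p-value reflects the spread between duplicates and not between independent treatments.

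The libraries held from 51727369 to 63186989 counts on genes, and the 2 libraries of each group differed by more than counting noise. KRT8 and KRT18, keratins of epithelial cells, were at 3378 CPM or more in every library (CPM are read counts scaled by library sizes adjusted with the TMM method). The surfactant gene SFTPB and the T cell gene CD3E were at 0, no leukocyte or fibroblast marker checked exceeded 17 counts, and the endothelial marker PECAM1 lay between 1.45 and 2.36 CPM. In bulk RNA, a change in the level per cell and a change in the share of cells with the transcript cannot be told apart.

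SnoRNAs guide the chemical modification of ribosomal RNA and small nuclear RNA. Box C/D snoRNAs (SNORD) direct methylation of the ribose, box H/ACA snoRNAs (SNORA) direct pseudouridylation, and small Cajal body RNAs (SCARNA) act on spliceosomal RNAs. Many host genes carry a 5′ terminal oligopyrimidine tract, a run of C and T at the start of transcription that links the transcript to growth signalling. Several spliced host transcripts are also known to be kept low by nonsense-mediated decay, which removes RNAs with early stop codons during translation, and the exon sequence of most hosts is poorly conserved beside that of the snoRNAs they hold.

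By RefSeq annotation, 15 of the 32 genes hold box C/D snoRNA genes, 14 hold box H/ACA snoRNA genes, 4 hold scaRNA genes and 2 hold none. GAS5, SNHG12 and SNHG25 hold both snoRNA types. GAS5 holds 11 and SNHG1 holds 8, whereas 15 hosts hold exactly 1. SNHG14 stands apart with 83, mostly tandem copies of SNORD115 and SNORD116 in the imprinted Prader-Willi region.

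Many of these transcripts have a pyrimidine run at or near the annotated start. Of the 28 hosts with a RefSeq start (GRCh38.p14; SNHG6, SNHG9, SNHG15 and SNHG25 had no entry), 19 (67.9%) had at least 5 consecutive C or T on the transcript strand touching the 5 bases on either side of the start. The same held for 34.0% of 27305 RefSeq starts, for 33.9% of the starts of tested genes and for 47.1% of 138 starts of tested protein-coding snoRNA hosts. The windows below run from 25 bases before the start to 25 bases from it onward, 5′ to 3′ on the transcript strand. Capitals mark the longest run that touches the 5 bases on either side of the start, so some marked runs begin after it. They are shown because the first 6 rose with the combination, SNHG5 did not pass the test, SNHG4 and SNHG21 fell, and EPB41L4A-AS1 rose with a run shorter than 5 bases.
SNHG1, chr11:62855861-62855910, minus strand: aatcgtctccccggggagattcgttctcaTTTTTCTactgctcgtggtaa
SNHG3, chr1:28505918-28505967, plus strand: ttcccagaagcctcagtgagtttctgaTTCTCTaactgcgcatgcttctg
SNHG16, chr17:76557739-76557788, plus strand: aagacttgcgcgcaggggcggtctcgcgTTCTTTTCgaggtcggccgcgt
SNHG19, chr16:2155334-2155383, minus strand: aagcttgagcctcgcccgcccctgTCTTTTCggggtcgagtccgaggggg
SNHG32, chr6:31834891-31834940, plus strand: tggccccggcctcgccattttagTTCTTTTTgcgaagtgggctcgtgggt
ZFAS1, chr20:49278617-49278666, plus strand: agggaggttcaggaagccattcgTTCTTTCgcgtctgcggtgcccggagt
SNHG5, chr6:85678709-85678758, minus strand: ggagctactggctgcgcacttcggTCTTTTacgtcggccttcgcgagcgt
SNHG4, chr5:139274076-139274125, plus strand: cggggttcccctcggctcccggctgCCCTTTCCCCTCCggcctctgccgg
SNHG21, chr15:82750539-82750588, plus strand: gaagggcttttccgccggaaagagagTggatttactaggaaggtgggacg
EPB41L4A-AS1, chr5:112160501-112160550, plus strand: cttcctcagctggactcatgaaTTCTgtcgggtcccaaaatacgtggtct

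The run was found among hosts that rose, fell and did not pass. It was present in 12 of 17 hosts with a start that rose in the combination, in 2 of 3 that fell and in 3 of 4 that did not pass the test. With SPHINX31 it was present in 5 of 6 hosts that rose and in 11 of 17 that did not pass. A run is a description of the letters at an annotated start, and no use of that start in A549 was measured. Some RefSeq starts lie outside the GENCODE gene. The window of SNHG14, counted with a run, is at chr15:24823583-24823632, and its gene begins at 24978583. The window of GAS5, counted without a run, is at chr1:173869021-173869070, and its gene begins at 173868882 on the minus strand.

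The hosts differed widely in level. Per length of merged exons (a TPM-like value, which allows genes to be compared), SNHG29 was highest in untreated cells at 180 ± 7.41 (SD, n = 2), followed by GAS5 at 102 ± 8.36, SNHG19 at 94.9 ± 2.72, SNHG6 at 90.9 ± 7.13 and SNHG1 at 74.9 ± 7.22. GAS5 and SNHG19 differed by less than the SD of GAS5, and SNHG19 and SNHG6 by less than the SD of SNHG6. SNHG29, which holds SNORD49A, SNORD49B and SNORD65, was separated from all others and took between 28.0% and 32.0% of all reads on hosts. SNHG14 and SNHG31 closed the order of the tested hosts at 1.12 ± 0.101 and 0.380 ± 0.0361. With the length of the longest transcript in place of merged exons, 23 of 27 levels moved by more than their spread, among them SNHG17, which went from rank 17 to rank 9.

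Together, the 32 hosts took 0.140% and 0.144% of the gene counts in the untreated libraries. They took 0.165% and 0.167% with indisulam, 0.177% and 0.158% with SPHINX31, and 0.188% and 0.189% in the combination. Both combination libraries were thus above the other 6, and the SPHINX31 duplicates lay farther apart than those of any other group. The first SPHINX31 library was above the second for 23 of the 28 tested hosts.

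With indisulam, 15 of the 28 hosts rose and 3 fell (edgeR's quasi-likelihood test, adjusted p under 0.05 over all tested genes). Among all 18661 tested genes 43.7% passed, 20.1% as higher and 23.5% as lower, beside 53.6% and 10.7% of the tested hosts. The median log2 fold change of the hosts was 0.28, beside 0.00 for all tested genes and -0.12 for 3129 other lncRNA genes. The hosts that rose were SNHG1, SNHG3, SNHG9, SNHG10, SNHG11, SNHG12, SNHG16, SNHG17, SNHG20, SNHG26, SNHG29, GAS5, ZFAS1, DANCR and EPB41L4A-AS1, and those that fell were SNHG4, SNHG14 and SNHG21.

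SPHINX31 called fewer genes of every kind. With it, 7 hosts rose (SNHG1, SNHG7, SNHG8, SNHG15, SNHG17, SNHG32 and EPB41L4A-AS1) and SNHG14 fell, against a background of 8.61% of all genes, 4.94% higher and 3.67% lower. The median log2 fold change of the hosts was 0.11, beside -0.01 for all tested genes. Leaving out the first SPHINX31 library left 5 calls, without SNHG7, SNHG17 and SNHG32. Leaving out the second untreated library left 4, without SNHG14 as well. Scaling by total counts alone turned the split of all genes from 921 higher and 685 lower to 1341 higher and 515 lower, and no host changed direction among those called.

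In the combination, 20 hosts rose and 3 fell, against 50.0% of all genes, 23.8% higher and 26.3% lower. The median log2 fold change of the hosts was 0.43, beside 0.00 for all tested genes and -0.02 for the other lncRNA genes. Both combination libraries lay above all 6 other libraries for 14 hosts, compared with 11.4% of all tested genes, and below all 6 for SNHG14 and SNHG15, compared with 12.3%. Only SNHG5, SNHG8, SNHG15, SNHG20 and SNHG31 did not pass in the combination.

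**Figure D1:**
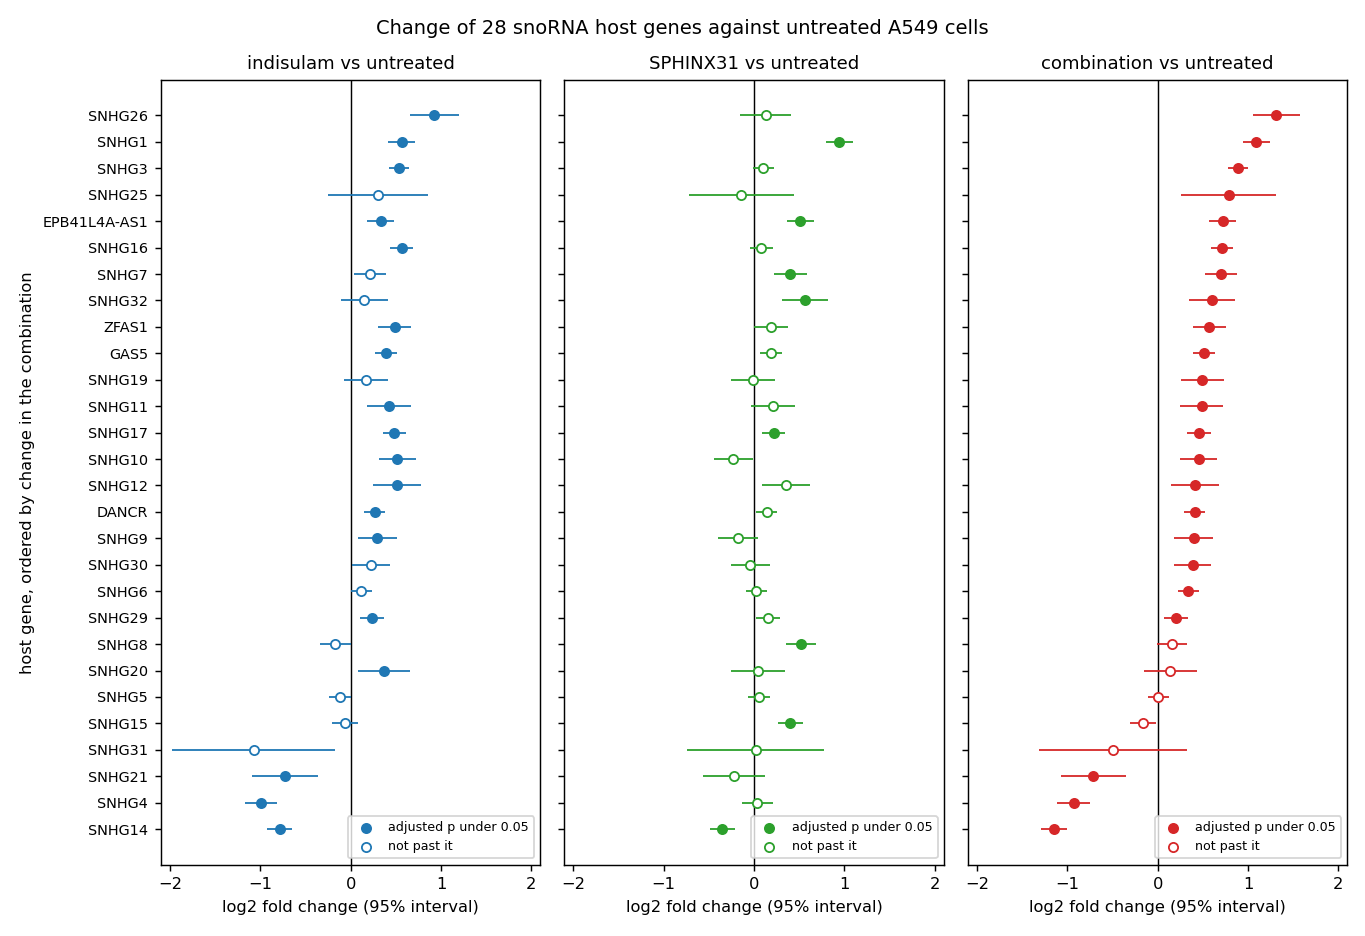
Log2 fold change of each tested host gene (horizontal axis, with the 95% interval) against untreated cells for indisulam, SPHINX31 and the combination, ordered by the change in the combination. Filled points passed an adjusted p of 0.05: 18 hosts with indisulam, 8 with SPHINX31 and 23 in the combination, from SNHG26 at 1.31 to SNHG14 at -1.15.

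Among the hosts of box C/D snoRNAs alone, 11 were tested and 5 rose and 1 fell with indisulam, 2 rose and 1 fell with SPHINX31, and 9 rose and 1 fell in the combination, where 43.7%, 8.61% and 50.0% of all tested genes passed. Among 11 hosts of box H/ACA snoRNAs alone, 6 rose and 1 fell with indisulam, 5 rose and none fell with SPHINX31, and 7 rose and 1 fell in the combination. The median changes in the combination were 0.50 and 0.41 (log2). The difference between the classes was not tested.

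SNHG1, the host of SNORD25 to SNORD31 and SNORD22 (chr11:62851978-62855953, minus strand, GRCh38), was among the hosts that rose in all 3 treated groups. Its levels were 79.3 and 87.6 CPM in untreated cells, 125 and 122 with indisulam, 172 and 149 with SPHINX31, and 173 and 183 in the combination. No treated library overlapped the untreated ones, and the SPHINX31 libraries lay above the indisulam libraries. The log2 fold changes were 0.57 (SE 0.0704, adjusted p = 2.70e-05) with indisulam, 0.94 (SE 0.0704, adjusted p = 7.13e-06) with SPHINX31 and 1.09 (SE 0.0705, adjusted p = 4.65e-08) in the combination, the last a 2.13-fold rise. SPHINX31 raised it more than indisulam did (difference 0.38 on the log2 scale, adjusted p = 5.14e-04), and the combination did not pass against SPHINX31 alone (0.15, adjusted p = 0.0898).

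EPB41L4A-AS1, the host of SNORA13, also rose in each treated group. It had 16.9 and 17.1 CPM in untreated cells, 22.0 and 20.7 with indisulam, 25.4 and 23.0 with SPHINX31, and 28.2 and 27.7 in the combination. The groups did not overlap and the log2 fold changes were 0.33, 0.51 and 0.72. SNHG17, the host of several SNORA71 genes, was the third such host, with 44.0 and 43.2 CPM in untreated cells, 59.5 and 62.5 with indisulam, 52.8 and 48.4 with SPHINX31, and 58.0 and 61.5 in the combination. Its rise with SPHINX31 was small (log2 fold change 0.22, adjusted p = 0.0437) and was lost without either untreated library, without the first SPHINX31 library, without either combination library, or with the replicate number as a block.

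The largest rise in the combination was that of SNHG26, the host of SNORD93. It had 5.87 and 6.24 CPM in untreated cells, 12.8 and 10.1 with indisulam, 6.13 and 7.08 with SPHINX31, and 16.3 and 13.8 in the combination. Both groups with indisulam lay above both groups without it. The log2 fold change was 0.93 (SE 0.124, adjusted p = 4.95e-05) with indisulam and 1.31 (SE 0.121, adjusted p = 1.30e-06) in the combination, a 2.49-fold rise, and it did not pass with SPHINX31 (0.13, 95% interval -0.15 to 0.41).

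SNHG3, the host of SNORA73A and SNORA73B, had duplicates that agreed closely. Its levels were 39.2 and 40.1 CPM in untreated cells, 58.3 and 56.8 with indisulam, 43.4 and 41.8 with SPHINX31, and 73.6 and 73.1 in the combination. The combination was above indisulam alone (log2 difference 0.35, adjusted p = 0.00140) although SPHINX31 by itself did not pass (0.10, 95% interval -0.01 to 0.22). SNHG3 shares exonic bases on the same strand with RCC1, a nuclear exchange factor gene, which changed the other way (log2 fold change -0.15, adjusted p = 0.0200 in the combination).

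SNHG16 and GAS5 rose with indisulam and in the combination. SNHG16, the host of SNORD1A, SNORD1B and SNORD1C, had 108 and 101 CPM in untreated cells, 148 and 161 with indisulam, 114 and 107 with SPHINX31, and 172 and 170 in the combination. GAS5, whose transcript accumulates in growth-arrested cells and is a known substrate of nonsense-mediated decay, had 136 and 147 CPM in untreated cells, 187 and 182 with indisulam, 168 and 153 with SPHINX31, and 203 and 200 in the combination. The combination libraries were the highest for both genes. The log2 fold changes of GAS5 were 0.39 (adjusted p = 1.01e-04) with indisulam, 0.19 (adjusted p = 0.0592) with SPHINX31 and 0.51 (adjusted p = 6.39e-06) in the combination.

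ZFAS1, the host of SNORD12, SNORD12B and SNORD12C, had 20.5 and 20.1 CPM in untreated cells, 27.8 and 29.2 with indisulam, 25.6 and 20.7 with SPHINX31, and 30.9 and 29.4 in the combination. DANCR, which holds SNORA26 and is known for holding back differentiation, had 35.9 and 34.9 CPM in untreated cells, 42.7 and 42.4 with indisulam, 38.7 and 39.3 with SPHINX31, and 47.3 and 46.7 in the combination. Both rose with indisulam and in the combination, by 0.49 and 0.57 (log2) for ZFAS1 and by 0.27 and 0.41 for DANCR. For neither did SPHINX31 alone pass the test, with log2 fold changes of 0.19 and 0.14.

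SNHG29, the most abundant host, rose least among those called. It had 446 and 456 CPM in untreated cells, 517 and 543 with indisulam, 537 and 464 with SPHINX31, and 515 and 528 in the combination. Its log2 fold changes were 0.23 with indisulam and 0.21 in the combination, and both calls were lost without the first untreated library, the second also without the second combination library. The SPHINX31 duplicates spanned a wider range than all the other treated libraries together.

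SNHG12 and SNHG10 showed no further rise when SPHINX31 was added to indisulam. SNHG12, which holds SNORD99 and box H/ACA snoRNAs, had 7.91 and 8.59 CPM in untreated cells, 12.1 and 11.4 with indisulam, 11.3 and 9.74 with SPHINX31, and 12.6 and 9.42 in the combination. SNHG10, the host of SCARNA13, had 6.80 and 7.31 CPM in untreated cells, 9.51 and 10.7 with indisulam, 5.68 and 6.31 with SPHINX31, and 9.36 and 9.94 in the combination. The combination differed from indisulam by -0.10 (95% interval -0.36 to 0.16) for SNHG12 and by -0.07 (95% interval -0.27 to 0.13) for SNHG10 on the log2 scale. The call of SNHG12 in the combination was lost without the first untreated or the first combination library.

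SNHG7 and SNHG32 passed with SPHINX31 and in the combination, not with indisulam. SNHG7, the host of SNORA17A and SNORA17B, had 34.8 and 31.6 CPM in untreated cells, 36.4 and 40.7 with indisulam, 47.8 and 40.1 with SPHINX31, and 52.9 and 55.1 in the combination. SNHG32, the host of SNORD48 and SNORD52, had 8.51 and 7.33 CPM in untreated cells, 7.94 and 9.71 with indisulam, 12.9 and 10.6 with SPHINX31, and 12.3 and 11.7 in the combination. The combination was above indisulam alone for both, by 0.49 (adjusted p = 0.00369) and 0.45 (adjusted p = 0.0354) on the log2 scale.

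SNHG15 and SNHG8 passed with SPHINX31 and not in the other 2 comparisons with untreated cells. SNHG15, a short-lived transcript that holds SNORA9, had 19.7 and 20.2 CPM in untreated cells, 19.3 and 18.8 with indisulam, 27.1 and 25.6 with SPHINX31, and 18.3 and 17.4 in the combination. It rose with SPHINX31 (log2 fold change 0.40, SE 0.0650, adjusted p = 0.00230), and in the combination its log2 fold change was -0.16 (adjusted p = 0.0606), lower than with SPHINX31 alone (difference -0.56, adjusted p = 1.23e-05). SNHG8, the host of SNORA24, had 43.7 and 43.8 CPM in untreated cells, 38.3 and 39.4 with indisulam, 68.8 and 56.6 with SPHINX31, and 47.0 and 50.6 in the combination. It was lower in the combination than with SPHINX31 alone (-0.36, adjusted p = 0.00173) and higher than with indisulam alone (0.33, adjusted p = 0.0237).

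SNHG6 and SNHG19 passed in the combination but with neither compound alone. SNHG6, the host of SNORD87, had 62.0 and 66.8 CPM in untreated cells, 70.2 and 69.5 with indisulam, 66.7 and 64.1 with SPHINX31, and 81.5 and 81.4 in the combination. SNHG19, the host of SNORD60, had 17.0 and 15.7 CPM in untreated cells, 15.9 and 21.2 with indisulam, 17.3 and 15.1 with SPHINX31, and 23.1 and 23.1 in the combination. The log2 fold changes in the combination were 0.34 (adjusted p = 1.57e-04) and 0.50 (adjusted p = 0.00209).

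SNHG14 was the single host that fell with every treatment. This transcript (chr15:24978583-25420336, plus strand) carries the imprinted SNORD115 and SNORD116 arrays and runs antisense to UBE3A. It had 36.7 and 40.2 CPM in untreated cells, 22.9 and 21.6 with indisulam, 29.7 and 30.4 with SPHINX31, and 17.5 and 17.1 in the combination. The groups did not overlap, and the log2 fold changes were -0.79 (SE 0.0657, adjusted p = 8.26e-07), -0.35 (SE 0.0643, adjusted p = 0.00443) and -1.15 (SE 0.0668, adjusted p = 2.01e-08), the last a 2.22-fold fall. Its call with SPHINX31 was lost without the second untreated library. UBE3A, a ubiquitin ligase gene, did not pass in any of the 3 comparisons, with log2 fold changes between 0.06 and 0.15.

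SNHG4, the host of SNORA74A and SNORA74D (chr5:139274102-139284899, plus strand), fell with indisulam but not with SPHINX31. It had 58.1 and 57.1 CPM in untreated cells, 31.9 and 25.9 with indisulam, 55.9 and 62.2 with SPHINX31, and 30.8 and 29.7 in the combination. The log2 fold changes were -0.99 (SE 0.0843, adjusted p = 9.74e-07) with indisulam and -0.93 (SE 0.0838, adjusted p = 1.05e-06) in the combination, which did not differ from each other past the threshold (0.06, 95% interval -0.12 to 0.25). SNHG4 shares 14.0% of its exonic bases on the same strand with MATR3, a nuclear matrix protein gene, so reads there could have been split or set aside. The overlapping MATR3 model had 1.81 and 1.71 CPM in untreated cells and 3.80 and 3.04 in the combination, a log2 fold change of 0.96 (adjusted p = 2.03e-04) in the other direction. A second MATR3 gene model had between 1 and 8 counts per library. Reads that fall on 2 models can be set aside in counting, so this change may not be that of MATR3 as a whole. Whether the assignment of shared reads took part in the fall was not tested.

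The remaining 8 tested hosts were SNHG5, SNHG9, SNHG11, SNHG20, SNHG21, SNHG25, SNHG30 and SNHG31. SNHG5, the host of SNORD50A and SNORD50B, did not pass in any comparison with untreated cells, at 180 and 184 CPM in untreated cells, 168 and 168 with indisulam, 199 and 179 with SPHINX31, and 180 and 185 in the combination. Its combination change was 0.01 (95% interval -0.11 to 0.12). SNHG9, SNHG11, SNHG25 and SNHG30 rose in the combination by 0.40, 0.49, 0.79 and 0.39 (log2), SNHG20 rose with indisulam by 0.36 (adjusted p = 0.0403) and SNHG31 did not pass, with 4 to 17 counts per library. The call of SNHG20 was lost without either untreated library, without the first indisulam library or with DESeq2. With indisulam, the call of SNHG9 was lost without either untreated library, without the second indisulam library or with DESeq2, and that of SNHG11 without the second untreated library. SNHG25 had 62 to 187 counts per library, and its call in the combination was lost without the first untreated or the first combination library.

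SNHG21, the host of SCARNA15, fell from 2.14 and 2.16 CPM in untreated cells to 1.32 and 1.28 with indisulam and 1.36 and 1.26 in the combination (log2 fold changes -0.72 and -0.71). The gene ENSG00000252690 covers 72.9% of its exonic bases on the same strand and rose in the same comparisons, by 1.15 and 0.96. Counts of the pair can therefore not be separated with certainty.

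The combination was also set against each single compound. Against indisulam alone, 7 hosts were higher (SNHG1, SNHG3, SNHG6, SNHG7, SNHG8, SNHG32 and EPB41L4A-AS1) and SNHG14 was lower, where 7.5% of all genes passed, 3.17% higher and 4.32% lower. Without the second combination library 3 of these calls were left, those of SNHG1, SNHG3 and EPB41L4A-AS1, and without the first 5 were left, SNHG6, SNHG8 and SNHG32 being lost. The call of SNHG32 was also lost with the replicate number as a block. Scaling by total counts alone turned the split of all genes in this comparison from 592 higher and 807 lower to 942 and 498. Against SPHINX31 alone, 15 hosts were higher and 5 lower, where 49.9% of all genes passed, 23.4% higher and 26.5% lower. Indisulam against SPHINX31 gave 9 higher and 10 lower hosts, where 50.5% of all genes passed, 23.4% higher and 27.1% lower, so the compounds differed on the hosts in both directions: GAS5, SNHG3, SNHG10, SNHG16, SNHG26 and ZFAS1 were higher with indisulam, and SNHG1, SNHG8, SNHG15, SNHG32 and EPB41L4A-AS1 higher with SPHINX31.

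Whether the combination differed from the sum of both single changes was tested with an interaction term. No host passed, as no gene did among all 18661 (0.0%). At an unadjusted p under 0.05 there were 6 hosts, beside 8.49% of all tested genes: SNHG1 (-0.42), SNHG12 (-0.45), SNHG15 (-0.49) and SNHG17 (-0.24) below the sum, and SNHG3 (0.25) and SNHG6 (0.20) above it. DESeq2 called 2, SNHG1 with an adjusted p of 0.0399 and SNHG15 with 0.0253, and so did edgeR with every gene of at least 1 count kept. By fitted values alone, the change in the combination exceeded both single changes for 16 hosts and lay between them for 10. It was below both for SNHG14 and SNHG15. This order was not tested and was not counted over all tested genes, so it cannot be read as a trait of the hosts. The median departure from the sum was 0.01.

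Several hosts share exonic bases with a gene on the opposite strand, and 16 such pairs could be tested. Host and partner both passed in 6 pairs with indisulam, 5 of them in opposite directions, and in none with SPHINX31. In the combination they both passed in 9 pairs, 7 of them in opposite directions. With indisulam the partner passed in 8 pairs (7 lower), with SPHINX31 in 2 (2 lower) and in the combination in 10 (9 lower). Among all tested genes 43.7%, 8.61% and 50.0% passed, 23.5%, 3.67% and 26.3% as lower, and most called hosts rose. How often other overlapping pairs of genes changed in opposite directions was not counted. ZNFX1 beside ZFAS1 fell by 0.42 with indisulam and by 0.56 in the combination on the log2 scale, and TRNAU1AP beside SNHG12 fell by 0.63 and 0.71. The shared part was largest for SNHG6 with MCMDC2 (58.9% of the exonic bases of the host), followed by EPB41L4A-AS1 with EPB41L4A (51.2%) and SNHG8 with PRSS12 (37.6%). The libraries were stranded, but the strand setting used in counting is not given in the sources used here, so the part of overlapping reads in these values was not tested.

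Few reads were counted on the snoRNA genes themselves. Of 140 snoRNA genes annotated by GENCODE inside the hosts, 84 of them in SNHG14, 126 had 0 counts in every library. The highest count in any library was 138. The 140 were found by symbol and include none of the 11 snoRNA genes that RefSeq places in GAS5. SNORD29 and SNORD31 of SNHG1 and SNORD50A of SNHG5 are not among them either, so no counts were looked up for these. Outside SNHG14, 9 of 13 snoRNA genes that overlap no annotated exon of their host had a count in some library, and 5 of 43 that overlap one did. Reads that fall on 2 genes can be set aside as ambiguous in counting, so a count of 0 does not show that the snoRNA was absent from the RNA. Only 6 could be tested. Of these, 33.3% passed with indisulam and 50% in the combination, beside 43.7% and 50.0% of all tested genes. SNORA26 in DANCR (log2 fold changes 0.78 and 0.76 with indisulam and in the combination) did not pass. Neither did SNORD104 in SNHG25 (-0.12 and 0.60) or SNORA71B in SNHG17 (-0.94 and -0.71). SNORD99 in SNHG12 (log2 fold changes 1.08 and 1.04) and SNORD93 in SNHG26 (1.46 and 1.5) rose with indisulam and in the combination, and SNORA73B in SNHG3 rose in the combination (1.02). These 3 genes had between 2 and 36 counts per library and overlap no annotated exon of their hosts. Whether their reads came from mature snoRNA or from unspliced host transcript was not tested.

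The protein partners of snoRNAs were called in both directions in the combination, as were all tested genes, of which 23.8% were higher and 26.3% lower. Among 4 box C/D core proteins, SNU13 rose (0.31) and NOP56 fell (-0.38) in the combination, and among 4 box H/ACA core proteins NOP10 rose (0.35) and DKC1 fell (-0.18), all on the log2 scale. Of 12 assembly factors, 4 rose, with TAF9 (0.45) and ZNHIT3 (0.35) at the top, and 4 fell, with PIH1D1 (-0.57) and RUVBL2 (-0.53) at the bottom. With SPHINX31, TAF9 alone among these 20 genes passed.

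Protein-coding genes that hold snoRNA genes were compared as the closest kind of host. Of 166 tested, 52 rose and 49 fell in the combination, with a median log2 fold change of 0.00. With indisulam 49 rose and 36 fell (median 0.05), and with SPHINX31 9 rose and 7 fell (median -0.02). Over all tested genes 50.0%, 43.7% and 8.61% passed in these comparisons, beside 60.8%, 51.2% and 9.64% of this list. The noncoding hosts had 20 higher and 3 lower in the combination, and the difference between the lists was not tested.

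Factors of nonsense-mediated decay, the pathway known to act on several hosts, were called at 40%, 0% and 33.3%, beside the shares of all tested genes (43.7% with indisulam, 8.61% with SPHINX31 and 50.0% in the combination). Of 15 factors, 2 rose and 4 fell with indisulam, none passed with SPHINX31, and 2 rose (UPF3B, 0.24, and SMG5, 0.18) and 3 fell in the combination, among them SMG1 (-0.40), the kinase of UPF1. Of 8 exon junction complex genes, CASC3 (0.30), RNPS1 (0.29), UPF3B (0.24) and MAGOHB (0.20) rose in the combination and none fell. Of 16 protein genes with transcripts known as substrates of this decay, 5 rose and 5 fell with indisulam, and 4 rose and 1 fell with SPHINX31. In the combination 6 rose and 3 fell, with ATF3 (0.67) and GADD45B (0.58) highest and SMG1 (-0.40) and SRSF6 (-0.21) lowest. Counts per gene do not separate the transcripts of a gene, and SMG1, SMG5 and UPF2 are also among the 15 factors. Decay itself was not measured, and a part of it in the host values was not tested.

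The change was also set beside properties of the hosts. Across the 28 tested hosts, which are not independent replicates, Spearman's rho of the combination change was 0.12 with the mean level, -0.01 with the number of exons of the canonical transcript, -0.12 with the length of merged exons and 0.21 with the number of RefSeq snoRNA genes held. In 6 hosts, SNHG1 and EPB41L4A-AS1 among them, the annotated exons of all isoforms merge into 1 block, so that reads from introns count toward the gene. The same holds in part for other hosts. The 6 exons of the canonical transcript lie within 2 merged blocks in SNHG11 and in SNHG12, and the 12 of GAS5 within 4.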

How the data were processed

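RNA from 8 A549 libraries, 2 technical duplicates in each of 4 groups, was selected for poly(A), made into stranded libraries and read from both ends over 150 bp. Raw read counts per gene were deposited by the authors. The submitters' processing notes name HISAT2 2.2.1, HTSeq and GRCh38. The strand setting and the annotation used for counting are not given in the sources used here. Between 83.0% and 86.0% of recorded reads were on genes, and the rest stayed out of library sizes and tests.

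Names, positions and lengths came from GENCODE 44 (GRCh38), which matched 99.7% of tested genes, and starts from RefSeq (GRCh38.p14). Counts were filtered with filterByExpr, normalised with TMM (factors 0.979 to 1.02) and compared with edgeR 4.0.16 (R 4.3.3, limma 3.58.1) by the quasi-likelihood test on all libraries, with Benjamini-Hochberg adjustment over 18661 genes. The residual degrees of freedom were 4 and the coefficient of variation between duplicates 0.0491. Standard errors were derived from the F statistic. Levels per length are counts divided by the length of merged exons and scaled to a common sum per library. The procedure was tested on simulated data with far fewer changed genes than were called here with indisulam or in the combination. Its errors where so many genes change were therefore not tested. Alternatives included DESeq2 1.42.0, other scalings and filters, a replicate block and leaving out each library.

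The host genes and all lists were chosen with earlier results of these data known. Values in every library are given for hosts past the threshold in at least 1 comparison with untreated cells whose mean log2 CPM reached 3, and for SNHG5 and SNHG21, which were added after their values were seen. Of each list, at most 4 called genes were named, the 2 highest and 2 lowest in the combination, beside genes that overlap a host. Some genes that this rule names are not reported here.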

Additional observations from a re-analysis of the deposited data

Results flagged for a closer look

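A signal outside the gene counts was higher in the groups with indisulam. The share of recorded reads outside annotated features was 3.94% and 4.34% in the untreated libraries. The lower of the 2 values was 4.49% with indisulam and 4.87% in the combination, above both untreated libraries, and the higher was 5.48% and 5.87%. With SPHINX31 the shares were 3.67% and 3.93%. What these reads came from was not analysed here. No group had more than 2 libraries, so single libraries could not be examined as outliers, and the one test of a difference between effects, the interaction, called no host.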

How the results depend on the processing

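Of 118 recomputed counts of called hosts, 112 stayed within 1.5 times the reported count. For hosts, the exceptions were SPHINX31 against untreated cells with a library left out (8 reported, 4 to 11), the combination against indisulam with a library left out (8 reported, 3 to 8), and the interaction (0 reported), which gave 2 with DESeq2 and 2 with every gene of at least 1 count in any library. With a library left out, the other comparisons gave 15 to 21 called hosts for indisulam, 20 to 24 for the combination, 16 to 22 for the combination against SPHINX31, 14 to 18 for indisulam against SPHINX31 and 0 for the interaction. Of 513 recomputed gene values, none reversed and 19 lost their call, and over 15 alternatives 14 of 18 calls with indisulam, 4 of 8 with SPHINX31, 20 of 23 in the combination and 3 of 8 for the combination against indisulam held in every one. The cause was not tested, apart from fewer libraries where one was left out. Over all genes, the 1606 calls with SPHINX31 became 2642 at an adjusted p under 0.1 and as few as 533 with a library left out, the 1399 of the combination against indisulam became 2226 and as few as 510, and the 0 of the interaction became 94 with the loose filter, 32 with DESeq2 and 1 at most with a library left out.

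The duplicates share only a number: deviations of same-numbered libraries over 10847 genes correlated from -0.523 (untreated and indisulam) to 0.425 (untreated and SPHINX31). With the replicate block, the called hosts were 18, 7 and 23 for indisulam, SPHINX31 and the combination, 7, 21 and 19 for the combination against indisulam, the combination against SPHINX31 and indisulam against SPHINX31, and 0 for the interaction. With the 2 indisulam numbers exchanged, a choice made after the data were seen, these counts were 19, 9, 24, 11, 21, 20 and 0, and over all genes 2630 with SPHINX31, 2252 for the combination against indisulam and 12 for the interaction.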
